A study of Homo sapiens with 12 samples.

Results

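The genes described here are 49 listed genes of the lysosome. They are its hydrolases with their activator and cofactor proteins, and its membrane proteins and channels. Subunits of the proton pump (the V-ATPase) and the transcription factors TFEB and TFE3 are also among them. A gene was taken in when the platform annotation gave it a probe set with that symbol alone, and its brightest such probe set over all arrays stood for it. This left 48 of the 49 genes, out of 19775 genes measured this way, and GLB1 was not analysed here. Of the 48, 45 were bright enough to test, among 9888 genes tested in all, and IDUA, ARSA and ARSB were not.

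The arrays came from OCI-Ly7 and Pfeiffer, established human lines of diffuse large B-cell lymphoma of the germinal centre B-cell type. Cells grown in IMDM with 10% serum had been transiently transfected with siRNA, directed either at BCL6 or at no target, and total RNA was taken 48 h later. Each of the 4 groups had 3 Affymetrix U133 Plus 2.0 arrays, 12 in all. No group was left untransfected, a comparison of the lines is one of these 2 lines only, and the titles of the Pfeiffer controls name an shRNA where the other labels name an siRNA. BCL6 itself, a transcriptional repressor that keeps B cells in the germinal centre state, was lowered but not removed.

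Lysosomes degrade protein, lipid, glycan and nucleic acid that reach them by endocytosis and autophagy. The V-ATPase acidifies the lumen for the hydrolases, heavily glycosylated proteins such as LAMP1 and LAMP2 line the membrane, and most soluble enzymes are sorted there by their mannose 6-phosphate tag. TFEB and TFE3 activate many lysosomal genes together through E-box sequences of the CLEAR type in their promoters. In B cells the endosomal and lysosomal route also supplies antigen peptides to MHC class II.

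All levels below are log2(signal + 16) of 1 probe set, where signal is the array brightness scaled by the authors. A difference of 1 is therefore a doubling, except that changes of dim genes are understated. Levels are compared between arrays of 1 probe set, never between genes. A gene is called higher or lower where limma's p, adjusted by Benjamini-Hochberg over all 9888 genes, was below 0.05. Whether replicate arrays came from separate cultures is not stated in the labels. The p-values therefore cover the spread among these arrays alone, and it may be technical.

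The brightest BCL6 probe set fell from 13.50, 13.57 and 13.59 to 13.13, 13.10 and 13.15 in OCI-Ly7, to 74.6% of control (adjusted p = 0.00731). In Pfeiffer it fell from 13.86, 13.92 and 14.01 to 13.11, 13.04 and 12.75, to 51.3% of control (adjusted p = 5.31e-07), and this fall was the larger one (difference -0.54; adjusted p = 0.00496). The other 2 BCL6 probe sets gave -0.49 and -0.17 in OCI-Ly7, the latter not called (adjusted p = 0.429 over all probe sets tested), and -1.29 and -0.97 in Pfeiffer. The exact two-sided permutation test on the brightest gave 0.1 in each line, the smallest p that 3 arrays against 3 allow. Correlations over all probe sets with 1 symbol were 0.967 to 0.972 within a group and 0.866 to 0.874 across the lines. The median signal was 71.3 to 85.0 on all arrays. The log2 ratio of the 3' to the 5' probe set of ACTB, a sign of RNA quality, was 0.11 to 0.20 in OCI-Ly7 and 0.28 to 0.39 in Pfeiffer. It therefore differed between the lines in the same arrays as the baseline differences below, and its part in them was not tested. The same ratio for GAPDH overlapped between the lines' controls, at -0.15 to -0.11 in OCI-Ly7 and -0.13 to -0.10 in Pfeiffer. Pfeiffer siRNA array 3 stood apart with 0.388 for ACTB and -0.03 for GAPDH. Of 8 listed B-cell markers 7 were measured, with a summed linear signal of 56165 to 57914 in OCI-Ly7 controls, 66158 to 67998 after siRNA, 44705 to 45261 in Pfeiffer controls and 29800 to 33899 after siRNA. These sums moved with the siRNA groups in both lines. Of macrophage and monocyte markers, whose cells are rich in lysosomes, 8 of 9 were measured, and their summed signal was 211 to 327 in OCI-Ly7 controls, 347 to 469 after siRNA, 197 to 251 in Pfeiffer controls and 180 to 246 after siRNA. In each of these groups 7 or 8 of the 8 had a mean signal under 100. The 6 T-cell markers summed to 152 to 330 in OCI-Ly7 controls, 206 to 281 after siRNA, 11611 to 13111 in Pfeiffer controls and 13964 to 15447 after siRNA. In every group 5 of the 6 had a mean signal under 100, and the bright one in Pfeiffer was CD8A. The part of these markers in the results below was not tested.

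The promoters are shown first because TFEB and TFE3, which are among the listed genes, act through E-box sequences in promoters. RefSeq (GRCh38.p14) promoter sequence was at hand for 37 of the 49 listed genes, GLB1 among them, and the 250 bases upstream of the start site were searched on both strands. CACGTG, the core E-box, was in 11 of 37 (29.7%), against 7.73% of all genes in the promoter table and 11.8% of the tested genes in it. TCACGTGA, a longer form that contains it, was in 5 (13.5%), against 1.04% and 2.23%. The CLEAR-type palindrome, which is TCACGTGA with a G before and a C after it, was in 2 of those 5, GAA and MCOLN1, against 0.374% and 0.841%. A BCL6-type sequence, TTCCTAGAA, was in none of the 37, against 0.396% of all genes. A match is a description of these letters and says nothing about which factor sits there. The 5 promoters with TCACGTGA are printed 5′ to 3′ in the direction of the gene, with every CACGTG in capitals.
LAMP1 (chr13:113296989-113297238, plus strand): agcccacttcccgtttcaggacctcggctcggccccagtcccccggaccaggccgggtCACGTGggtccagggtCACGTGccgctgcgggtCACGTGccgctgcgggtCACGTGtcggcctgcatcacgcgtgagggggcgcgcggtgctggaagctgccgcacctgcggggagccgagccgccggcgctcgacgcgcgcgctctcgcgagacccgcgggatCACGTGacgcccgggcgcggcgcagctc
ATP6V0D1 (chr16:67481158-67481407, minus strand): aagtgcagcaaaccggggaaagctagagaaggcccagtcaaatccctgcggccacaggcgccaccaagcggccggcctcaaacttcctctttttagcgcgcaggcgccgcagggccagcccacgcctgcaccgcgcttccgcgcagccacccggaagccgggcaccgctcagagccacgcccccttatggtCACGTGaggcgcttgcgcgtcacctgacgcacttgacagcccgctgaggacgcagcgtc
CTSA (chr20:45891085-45891334, plus strand): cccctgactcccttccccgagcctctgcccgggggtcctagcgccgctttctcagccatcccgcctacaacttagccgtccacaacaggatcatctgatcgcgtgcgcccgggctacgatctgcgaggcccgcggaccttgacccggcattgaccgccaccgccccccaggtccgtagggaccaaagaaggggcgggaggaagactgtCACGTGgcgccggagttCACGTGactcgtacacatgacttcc
MCOLN1 (chr19:7522374-7522623, plus strand): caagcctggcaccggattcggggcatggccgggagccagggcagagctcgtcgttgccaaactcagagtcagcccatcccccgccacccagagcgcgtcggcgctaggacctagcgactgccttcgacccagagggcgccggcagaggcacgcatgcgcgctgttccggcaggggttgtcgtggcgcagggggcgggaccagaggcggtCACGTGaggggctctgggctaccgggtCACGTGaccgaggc
GAA (chr17:80101331-80101580, plus strand): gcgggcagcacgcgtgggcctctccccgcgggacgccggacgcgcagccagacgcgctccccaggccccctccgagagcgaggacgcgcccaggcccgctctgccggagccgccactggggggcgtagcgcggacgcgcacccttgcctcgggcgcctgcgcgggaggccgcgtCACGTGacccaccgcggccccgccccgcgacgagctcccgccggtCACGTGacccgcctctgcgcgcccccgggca
The LAMP1 promoter holds 5 copies, at positions -192 to -28 from the start site, and the CTSA, MCOLN1 and GAA promoters hold 2 each.

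With the non-target control the lines differed widely in these genes, and most were higher in Pfeiffer. Of the 45 tested, 33 were higher in Pfeiffer controls than in OCI-Ly7 controls and 5 lower (84.4% called), while 79.6% of all tested genes were called, 42.5% higher and 37.1% lower. The share higher in Pfeiffer was thus 73.3% of the lysosomal genes. Their median difference was 0.60, against 0.07 over all genes. The values of the lines' controls did not overlap in 41 of 45 genes, 35 higher in Pfeiffer and 6 lower (91.1%, against 82.4% of all genes, 44% higher and 38.4% lower). A gene enters the test when bright in either line, so for a gene bright in Pfeiffer alone the direction was largely fixed by this brightness limit. Over the 40 genes past that limit in both lines, 30 were higher in Pfeiffer, 4 lower and 6 not called, with a median of 0.54. The same share over all genes past the limit in both lines was not counted. With all probe sets of a gene averaged in place of the brightest, 25 of 42 tested were higher in Pfeiffer and 4 lower. Over all genes 73.7% were called in this setting, so the lysosomal genes were called no more often, though mostly higher. The calls of GUSB, HEXA, ASAH1, ATP6V1D and ATP6V1H were then lost, and LAMP2, CTSC and TFE3 changed sign. In RNA from whole cultures, fewer cells of a type and less RNA per cell cannot be told apart.

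**Figure D1:**
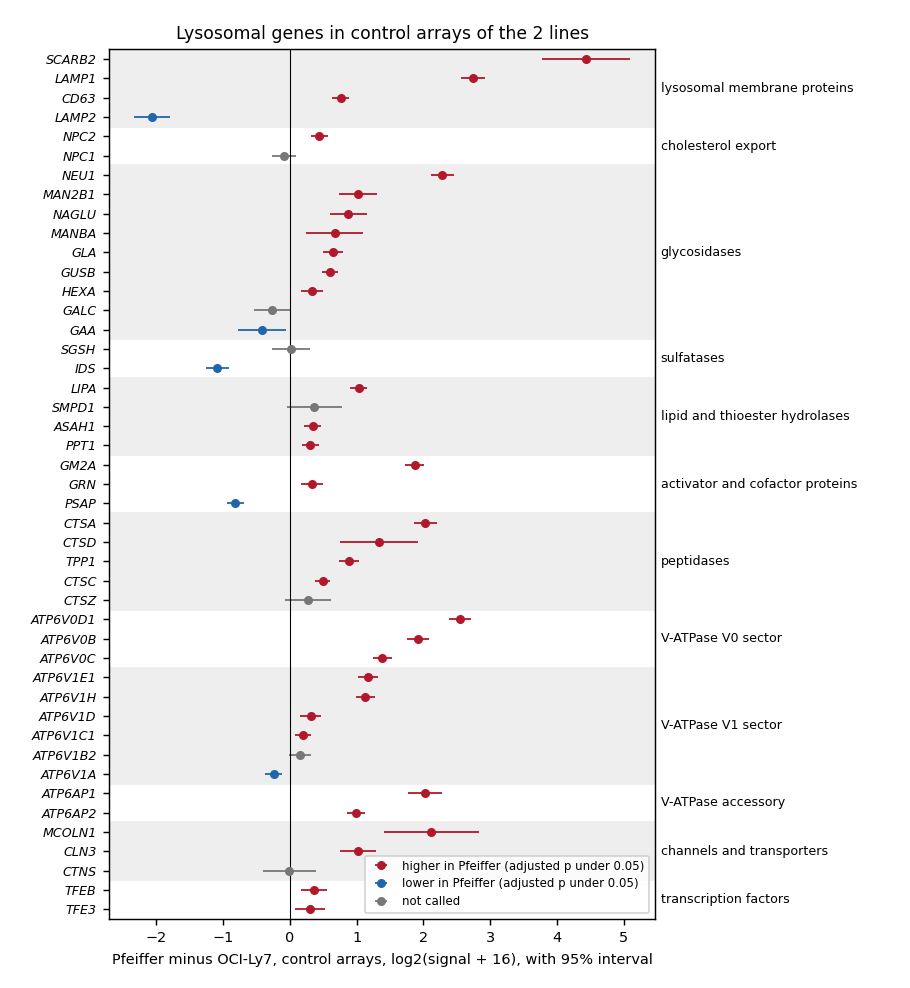
Difference of the control arrays, Pfeiffer minus OCI-Ly7, in log2(signal + 16) with limma's 95% interval, for the 45 tested lysosomal genes grouped by role. Most points lie to the right of 0, with LAMP1 at 2.74; SCARB2 (4.43) was near the floor in OCI-Ly7, and LAMP2 (-2.06) changes sign with the probe set.

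LAMP1, a major glycoprotein of the lysosomal membrane, read 10.30, 10.46 and 10.47 in OCI-Ly7 controls and 13.11, 13.12 and 13.24 in Pfeiffer controls. It was 6.68-fold higher in Pfeiffer (2.74 ± 0.08, SE; adjusted p = 1.75e-13), and its other 3 probe sets gave 2.24 to 2.95. SCARB2, the receptor that carries glucocerebrosidase to the lysosome, read 4.53, 4.97 and 5.61 in OCI-Ly7, where it was near the floor of the array, and 9.40, 9.47 and 9.55 in Pfeiffer. SCARB2 passed the brightness limit through Pfeiffer alone, so its direction was largely fixed by that limit. The size of its difference is set by the floor: 4.43 as plotted, and 2.58 to 5.39 under the alternatives. Its other probe sets gave 3.07 and 2.28. CD63, a tetraspanin of late endosomes, was higher in Pfeiffer by 0.76 (adjusted p = 1.14e-08).

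LAMP2 depended on the probe set. The brightest one read 12.19, 11.89 and 11.87 in OCI-Ly7 and 10.07, 10.14 and 9.56 in Pfeiffer, a difference of -2.06 (adjusted p = 6.64e-10). Another probe set gave -1.02, but the remaining pair gave 1.91 and 1.58. LAMP2 is known to be made as isoforms with different last exons, and which probe set reads which isoform was not settled here. No direction is therefore given for LAMP2 as a gene.

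Of the pair that exports cholesterol from the lysosome, the soluble carrier NPC2 was higher in Pfeiffer by 0.44 (adjusted p = 3.79e-06). Its membrane partner NPC1 differed by -0.09, with an interval of -0.27 to 0.10.

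Among the 20 tested hydrolases, 14 were higher in Pfeiffer controls and 2 lower, with a median of 0.54. NEU1, the lysosomal sialidase, read 8.69, 8.86 and 8.87 in OCI-Ly7 and 11.09, 11.07 and 11.09 in Pfeiffer, 4.86-fold higher (2.28 ± 0.08; adjusted p = 1.25e-12). CTSA, the carboxypeptidase that binds NEU1 and protects it in a complex, read 9.16, 9.37 and 9.29 against 11.27, 11.37 and 11.27. It was 4.08-fold higher (2.03 ± 0.08; adjusted p = 3.78e-12). The enzyme and its protector were thus both more than 4-fold higher in Pfeiffer. The complex also holds the product of GLB1, which was not analysed here.

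The other glycosidases higher in Pfeiffer were MAN2B1, an alpha-mannosidase (1.02), NAGLU, which degrades heparan sulphate (0.88), the beta-mannosidase MANBA (0.67), the alpha-galactosidase GLA (0.64), the beta-glucuronidase GUSB (0.60) and HEXA, the alpha chain of hexosaminidase (0.33). Their adjusted p-values were 1.01e-07 to 0.00614. The call of HEXA was lost with its probe sets averaged (0.085; adjusted p = 0.701) and without the _s_at kind (0.22; adjusted p = 0.488), and that of GUSB was lost with its probe sets averaged (0.36; adjusted p = 0.214). GAA, which degrades glycogen, was lower in Pfeiffer by a margin close to the threshold (-0.41; adjusted p = 0.0356), and this call was lost without OCI-Ly7 control array 1 or 2 or Pfeiffer control array 1 or 2. GALC, the galactosylceramidase, was not called (-0.27; adjusted p = 0.0677).

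LIPA, the acid lipase that frees cholesterol from its esters, read 11.05, 11.17 and 11.24 in OCI-Ly7 and 12.18, 12.16 and 12.22 in Pfeiffer, 2.04-fold higher (1.03 ± 0.06; adjusted p = 3.96e-10). The thioesterase PPT1 was higher by 0.30 (adjusted p = 0.000239). The acid ceramidase ASAH1 was higher by 0.34 on its brightest probe set (adjusted p = 9.11e-05) and lower by -0.58 on its second. The acid sphingomyelinase SMPD1, which passed the brightness limit through Pfeiffer alone, was not called (0.37; adjusted p = 0.087).

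Of the sulphatases, IDS, which removes sulphate from iduronate, was higher in OCI-Ly7. It read 11.61, 11.48 and 11.56 there and 10.66, 10.32 and 10.41 in Pfeiffer, where it stood at 47.1% (-1.09; adjusted p = 5.95e-09). SGSH, a heparan sulphatase, did not separate the lines (0.02, interval -0.26 to 0.30).

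Among the peptidases, TPP1, which trims tripeptides from N termini, was higher in Pfeiffer by 0.88 (adjusted p = 1.52e-08), and the aspartic protease CTSD by 1.34 (adjusted p = 0.000341). CTSD was dim in OCI-Ly7, at 6.76 to 7.71, and passed the brightness limit through Pfeiffer alone. CTSC, which activates granule proteases, was higher by 0.49 on its brightest probe set and by 1.89 on a second, but gave -1.25 and -1.55 on the other two. CTSZ was not called (0.27; adjusted p = 0.136).

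The activator and cofactor proteins GM2A, GRN and PSAP differed in both directions. GM2A, which lifts ganglioside GM2 for hexosaminidase, read 11.999, 12.01 and 12.10 in OCI-Ly7 and 13.92, 13.77 and 14.03 in Pfeiffer. It was 3.66-fold higher in Pfeiffer (1.87 ± 0.07; adjusted p = 1.27e-12), and all 6 of its probe sets past the filter gave 1.58 to 2.07. GRN, the precursor of the granulins, was higher by 0.34 (adjusted p = 0.000904). PSAP, the precursor of the saposins, was lower in Pfeiffer, at 56.9% of OCI-Ly7 (-0.81; adjusted p = 3.12e-09), and its second probe set gave -0.86.

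Of the 11 listed V-ATPase subunits and accessory proteins, 9 were higher in Pfeiffer and 1 lower, with a median of 1.13. The list does not cover either sector of the pump in full. Of 9 other V-ATPase subunits and assembly factors tested, 7 were higher in Pfeiffer and 1 lower (-1.30 to 5.03, median 0.54). All 3 listed subunits of the membrane sector V0 were higher by 2.61-fold or more. ATP6V0D1, its peripheral d subunit, read 10.57, 10.55 and 10.52 in OCI-Ly7 and 13.23, 13.05 and 12.97 in Pfeiffer, 5.82-fold higher (2.54 ± 0.08; adjusted p = 1.84e-13). ATP6V0B, a proteolipid of the proton-carrying ring, read 10.87, 10.95 and 11.19 against 13.00, 12.93 and 12.83, 3.78-fold higher (1.92 ± 0.08; adjusted p = 5.59e-12). ATP6V0C, the main proteolipid of that ring, read 11.29, 11.35 and 11.26 against 12.75, 12.64 and 12.67, 2.61-fold higher (1.38 ± 0.07; adjusted p = 3.25e-11). No OCI-Ly7 array reached a Pfeiffer array for any of these subunits.

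The accessory protein ATP6AP1 read 10.36, 10.11 and 10.32 in OCI-Ly7 and 12.32, 12.29 and 12.24 in Pfeiffer, 4.06-fold higher (2.02 ± 0.12; adjusted p = 3.42e-10). ATP6AP2, the prorenin receptor, was higher by 0.99 (adjusted p = 8.8e-10). The 6 listed subunits of the cytosolic sector V1, which hydrolyses ATP, differed less than the listed V0 subunits, with a median of 0.26. ATP6V1H, which couples the sectors, read 11.06, 10.98 and 10.98 against 12.09, 12.15 and 12.16 (1.13 ± 0.07; adjusted p = 4e-10), while its dimmer second probe set was not called (adjusted p = 0.992). The stator subunit ATP6V1E1 was higher by 1.18 (adjusted p = 4.24e-10), ATP6V1D by 0.31 and ATP6V1C1 by 0.20 (adjusted p = 0.0013 and 0.00475). The catalytic subunit ATP6V1A was lower in Pfeiffer (-0.24; adjusted p = 0.002), and the nucleotide-binding ATP6V1B2 was not called (0.15; adjusted p = 0.0881).

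MCOLN1, the calcium channel of the lysosome, was higher in Pfeiffer by 2.12 (adjusted p = 2.99e-05), from 6.80, 6.82 and 5.23 to 8.26, 8.38 and 8.56, and passed the brightness limit through Pfeiffer alone. CLN3, a membrane protein lost in juvenile neuronal ceroid lipofuscinosis, was higher by 1.02 (adjusted p = 1.8e-06). The cystine exporter CTNS was not called (-0.01, interval -0.41 to 0.39). TFEB itself read 9.72, 9.71 and 9.60 in OCI-Ly7 and 10.06, 9.95 and 10.12 in Pfeiffer, a difference of 0.37 (adjusted p = 0.00179). TFE3 differed by 0.31 (adjusted p = 0.0143), a call lost without OCI-Ly7 control array 2 (adjusted p = 0.0532).

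Of the genes whose promoters are printed above, LAMP1, ATP6V0D1, CTSA and MCOLN1 were higher in Pfeiffer and GAA was lower. Of the 10 tested genes with CACGTG upstream, MCOLN1 and CTSD passed the brightness limit through Pfeiffer alone and GAA through OCI-Ly7 alone, so their direction was largely fixed by it. The other 7 passed it in both lines, and 7 of 7 were higher in Pfeiffer, with a median of 2.03. Of the genes past the limit in both lines with promoter sequence and no CACGTG, 17 of 22 were higher and 1 lower, with a median of 0.47. Of those with no promoter sequence at hand, 6 of 11 were higher and 3 lower. Such shares over all genes past the limit in both lines were not counted. Over all genes tested, past it in either line, 45.3% of those with CACGTG were higher in Pfeiffer, with a median of 0.15. Of all those with promoter sequence, 42.5% were higher. After BCL6 siRNA in Pfeiffer, 0 of the 10 with CACGTG were called, while of the 24 tested without it 3 rose and 6 fell. Of the 11 with no promoter sequence 2 rose and 1 fell, and 16.2% of all tested genes were called. A part of the motif in any of these differences was not tested.

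BCL6 siRNA changed few of these genes in OCI-Ly7. There 1 of the 45 rose and 2 fell (6.67% called, against 2.68% of all tested genes, 1.69% higher and 0.991% lower). The median change was 0.07, against 0.01 over all genes, and 31 of 45 changes were above 0. Over all genes 5344 of 9888 changes were above 0. Arrays of the groups did not overlap for 12 genes that read higher and 7 that read lower after siRNA (42.2% in all, against 22.9% of all genes, 13.4% higher and 9.42% lower).

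The clearest change in OCI-Ly7 was in ATP6V1A, the catalytic subunit of the V-ATPase. It read 12.37, 12.43 and 12.41 in controls and 12.05, 11.997 and 12.04 after siRNA, a fall to 77% of control (-0.38 ± 0.06; adjusted p = 0.00388). Its second probe set gave -0.40 (adjusted p = 0.017 over all probe sets tested), and the call held under every alternative run. LAMP2 fell from 12.19, 11.89 and 11.87 to 11.49, 11.33 and 11.45 (-0.56 ± 0.13; adjusted p = 0.0314). Its other probe sets gave -0.31, -0.23 and 0.19, none called. LAMP1 rose from 10.30, 10.46 and 10.47 to 10.80, 10.91 and 10.61 (0.36 ± 0.08; adjusted p = 0.0322), but its other 3 probe sets gave 0.02, -0.09 and 0.01. With an array left out, the LAMP2 change stayed at -0.61 to -0.45 and the LAMP1 change at 0.29 to 0.44, but the calls did not hold. That of LAMP2 was lost on leaving out any 1 of the 6 OCI-Ly7 arrays (adjusted p = 0.0527 to 0.128). That of LAMP1 was lost without any 1 of the 3 control arrays or without siRNA array 1 or 2 (adjusted p = 0.0581 to 0.124).

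No hydrolase was called in OCI-Ly7. Of the 20, 15 had positive values, among them GUSB at 0.22 (adjusted p = 0.0517), LIPA at 0.20 (adjusted p = 0.107) and NAGLU at 0.40 (adjusted p = 0.133). GUSB read 11.09, 11.12 and 11.04 in controls and 11.27, 11.33 and 11.31 after siRNA, with no overlap. The 3 activator and cofactor proteins had values of 0.12 to 0.19. The listed V0 subunits gave -0.09 to 0.02, and TFEB and TFE3 0.01 and 0.13. MCOLN1, dim in this line, gave 0.81 with an interval of 0.09 to 1.52 (adjusted p = 0.26).

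In Pfeiffer, where BCL6 fell further, 12 of the 45 changed, 5 upward and 7 downward. That is 26.7% of the genes, against 16.2% of all tested genes (7.9% higher and 8.31% lower). The median change was -0.06, against 0.00014 over all genes, and 29 of 45 changes were below 0. Over all genes 4940 of 9888 changes were below 0. Arrays of the groups did not overlap for 8 genes that read higher and 13 that read lower (46.7% in all, against 33% of all genes, 16% higher and 16.9% lower). Every called change was below 2-fold. With probe sets of a gene averaged, the calls of LAMP2 (0.14), TPP1 (-0.22), LIPA (-0.18) and GUSB (0.13) were lost.

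**Figure D2:**
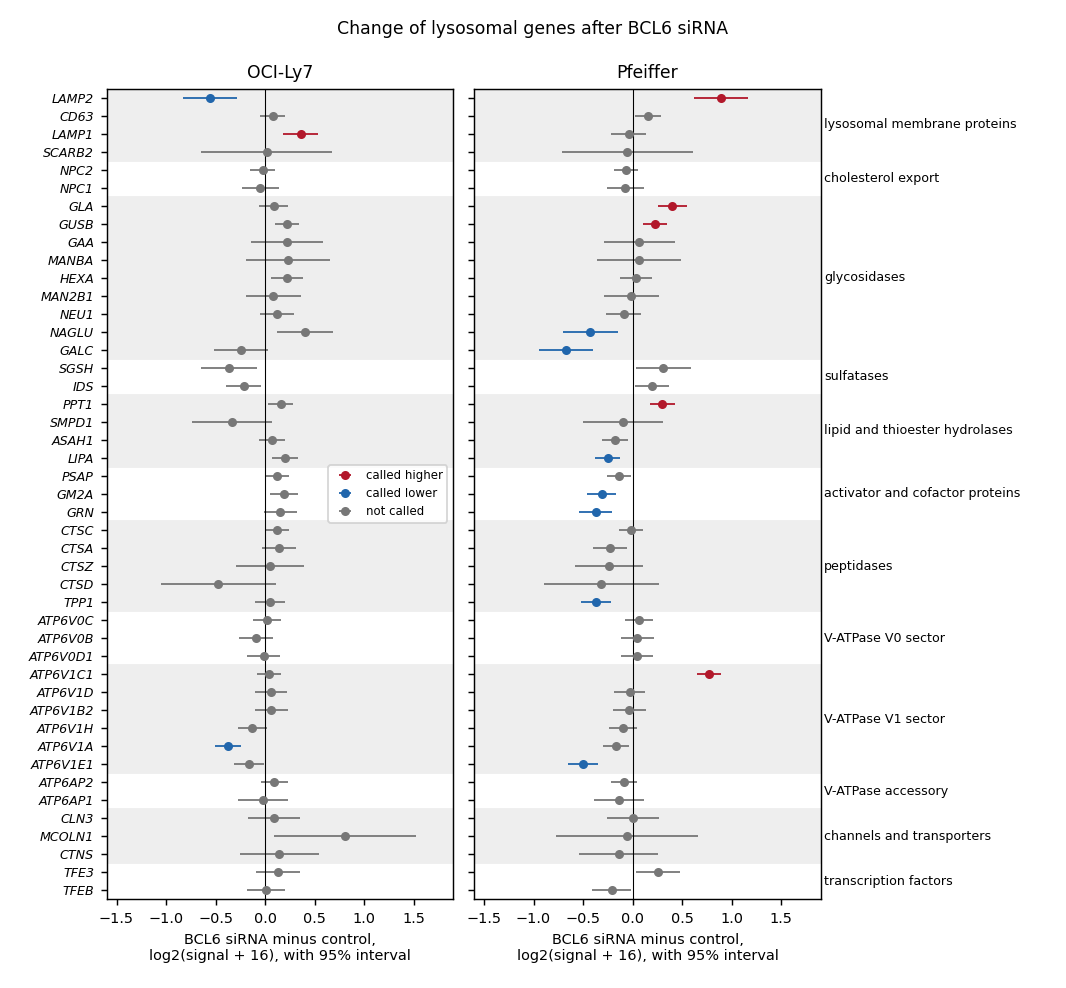
BCL6 siRNA minus control in each line, in log2(signal + 16) with limma's 95% interval, for the 45 tested lysosomal genes by role. Coloured points are called: 3 genes in OCI-Ly7 and 12 in Pfeiffer, with LAMP2 called lower in OCI-Ly7 and higher in Pfeiffer.

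The V1 sector held the change with the lowest p in Pfeiffer. ATP6V1C1, the C subunit that joins V1 to V0 when the pump assembles, read 11.56, 11.53 and 11.52 in controls and 12.38, 12.29 and 12.27 after siRNA. It rose to 171% of control (0.78 ± 0.06; adjusted p = 3.01e-07), and all 4 of its probe sets gave 0.59 to 0.78. ATP6V1E1 went the other way, from 12.47, 12.41 and 12.53 to 11.84, 12.01 and 12.05, a fall to 70.5% (-0.50 ± 0.07; adjusted p = 0.000163). Subunits of one sector thus moved in opposite directions. The other 4 listed V1 subunits were not called (-0.17 to -0.03). Nor were the 3 listed of V0, which gave 0.04 to 0.06 with intervals inside -0.12 and 0.21.

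Among the hydrolases, 3 rose and 4 fell in Pfeiffer. GLA read 11.80, 11.89 and 11.76 in controls and 12.14, 12.19 and 12.31 after siRNA, a rise to 132% (0.40 ± 0.07; adjusted p = 0.00107). PPT1 rose from 12.37, 12.49 and 12.32 to 12.69, 12.65 and 12.73 (0.30 ± 0.06; adjusted p = 0.00315). GUSB rose by 0.22 (adjusted p = 0.0133), the same size as in OCI-Ly7, and this call was lost without Pfeiffer control array 2 (adjusted p = 0.0507). For each of these enzymes all siRNA arrays lay above all control arrays.

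GALC, which degrades galactosylceramide, fell the most of the hydrolases, from 8.53, 8.40 and 8.54 to 7.75, 7.83 and 7.88, or 62.7% of control (-0.67 ± 0.13; adjusted p = 0.00218). Its dimmer second probe set gave -0.21 and was not called (adjusted p = 0.531 over all probe sets tested). TPP1 fell from 12.13, 12.08 and 12.22 to 11.71, 11.78 and 11.84 (-0.37 ± 0.07; adjusted p = 0.00247). LIPA fell from 12.18, 12.16 and 12.22 to 11.96, 11.93 and 11.91 (-0.25 ± 0.06; adjusted p = 0.0109). NAGLU fell by 0.43 on the log2 scale (adjusted p = 0.0359), but the call was lost on leaving out any 1 of Pfeiffer control arrays 1 to 3 or siRNA arrays 1 and 2 (adjusted p = 0.0552 to 0.13). Of the peptidases, CTSA at -0.23 (adjusted p = 0.0711), CTSD at -0.32, CTSZ at -0.24 and CTSC at -0.02 were not called, though the third probe set of CTSC was called lower (-0.69; adjusted p = 0.000434 over all probe sets tested).

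Of the 3 activator and cofactor proteins, 2 fell in Pfeiffer and none rose. GRN, the precursor of the granulins and a partner of PSAP in transport to the lysosome, read 12.94, 12.67 and 12.79 in controls and 12.26, 12.52 and 12.51 after siRNA, a fall to 77.3% (-0.37 ± 0.08; adjusted p = 0.0042). Its other probe sets gave -0.47 and -0.46. GM2A fell from 13.92, 13.77 and 14.03 to 13.49, 13.65 and 13.65 (-0.31 ± 0.07; adjusted p = 0.00533), and its 6 probe sets gave -0.49 to -0.21. PSAP was not called (-0.14; adjusted p = 0.12).

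**Figure D3:**
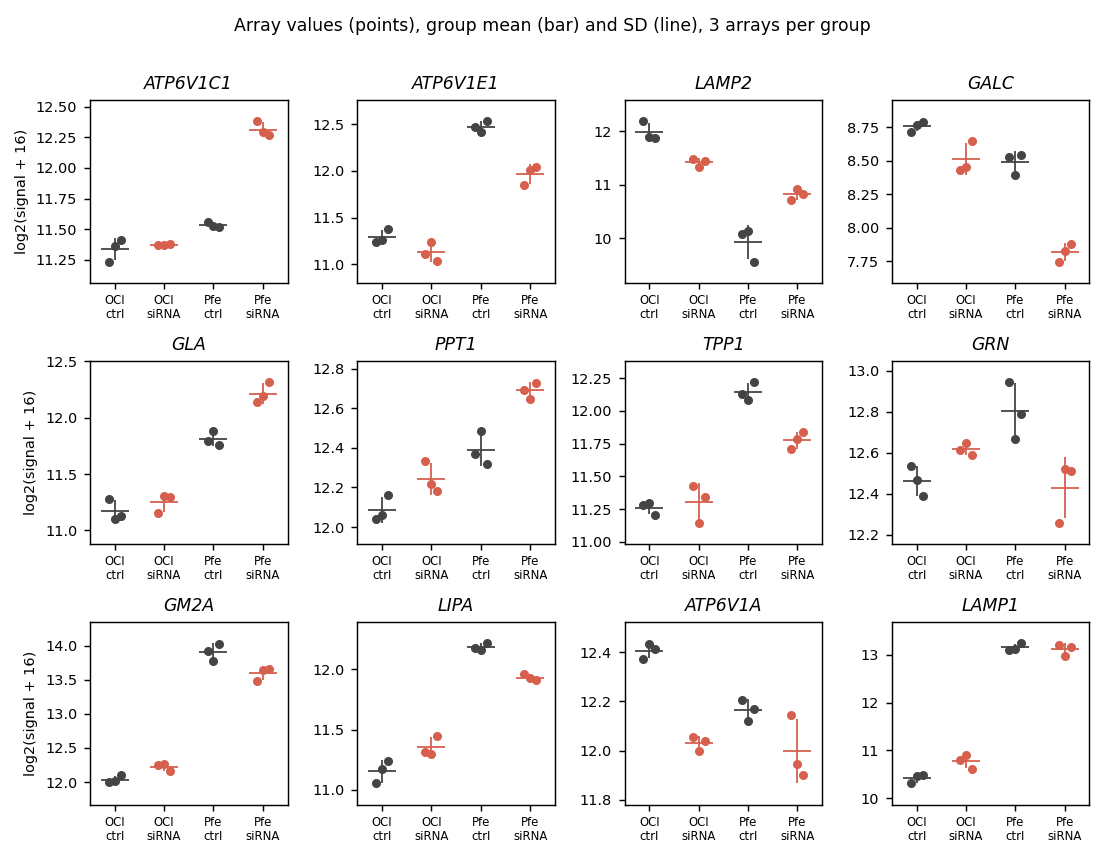
Level of 12 lysosomal genes on each array, in log2(signal + 16), with a bar at the mean of each group of 3 and a line for its SD, for OCI-Ly7 (OCI) and Pfeiffer (Pfe) controls and siRNA arrays; each panel has its own vertical scale. ATP6V1C1 is higher on all 3 Pfeiffer siRNA arrays than on any other array, and LAMP2 moves down in OCI-Ly7 and up in Pfeiffer on the probe set used.

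LAMP2 rose in Pfeiffer on its brightest probe set, from 10.07, 10.14 and 9.56 to 10.72, 10.91 and 10.83, or 186% of control (0.89 ± 0.13; adjusted p = 0.000204). Its other probe sets gave 0.49, -0.38 and -0.45, and the last pair were called lower (adjusted p = 0.033 and 0.0443 over all probe sets tested). The probe sets of this gene thus split into the same pairs as in the comparison of the lines. The other membrane proteins were not called in Pfeiffer: CD63 gave 0.16 (adjusted p = 0.0915), LAMP1 -0.04 and SCARB2 -0.05. Neither were NPC1 (-0.08) and NPC2 (-0.07), the accessory proteins ATP6AP1 and ATP6AP2 (-0.14 and -0.09), MCOLN1 (-0.06), CLN3 (0.0045), CTNS (-0.14), TFEB (-0.21; adjusted p = 0.134) or TFE3 (0.25; adjusted p = 0.12).

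**Figure D4:**
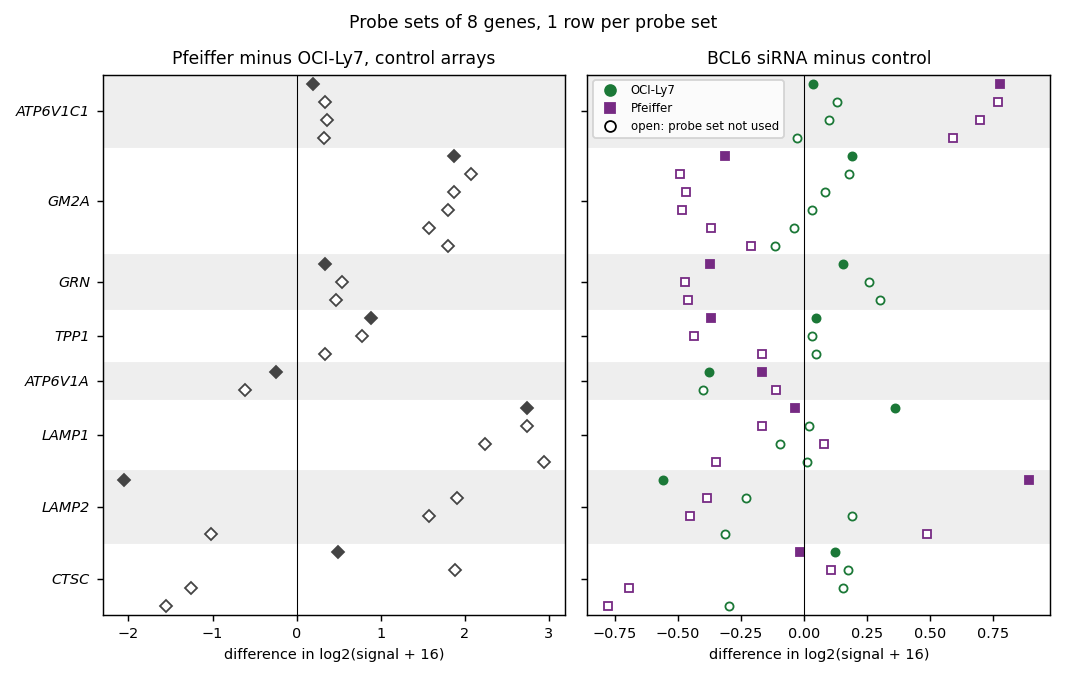
Every probe set past the brightness filter for 8 lysosomal genes, 1 row each, as the difference of the lines' controls (left) and as BCL6 siRNA minus control (right), in log2(signal + 16); filled symbols are the probe sets used. The rows of ATP6V1C1, GM2A, GRN and TPP1 lie on 1 side of 0 in Pfeiffer, while those of LAMP2 and CTSC lie on both sides in the left panel.

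Of the 45 listed genes tested, none was called in the same direction in both lines, LAMP2 was called in opposite directions, and 31 were called in neither. Of all 9888 tested genes, 71 were called in the same direction, 37 in opposite ones and 8128 in neither. Calls in both lines were thus rare over all genes too. When the difference between the responses was tested directly, 11 of 45 genes were called (24.4%, against 8.8% of all genes), 4 more positive in Pfeiffer and 7 more negative. All genes gave 3.74% and 5.06%. The differences with the lowest adjusted p were those of LAMP2 on the probe set used (1.45 ± 0.18; adjusted p = 0.000147) and ATP6V1C1 (0.74 ± 0.08; adjusted p = 3.76e-05). The latter gene changed by 0.04 in OCI-Ly7. With all probe sets of a gene averaged, only 1 of 42 was called more positive and 1 more negative, against 5.4% of all genes.

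Of the 7 negative differences, 5 were of genes that fell in Pfeiffer and had positive values in OCI-Ly7. GM2A changed by -0.31 in Pfeiffer and 0.19 in OCI-Ly7 (difference -0.50 ± 0.10; adjusted p = 0.00393). LIPA changed by -0.25 and 0.20 (-0.45 ± 0.09; adjusted p = 0.00419). GRN changed by -0.37 and 0.15 (-0.53 ± 0.11; adjusted p = 0.00711). For each of them the OCI-Ly7 value by itself was not called.

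NAGLU changed by -0.43 in Pfeiffer and 0.40 in OCI-Ly7 (-0.83 ± 0.18; adjusted p = 0.0109), and TPP1 by -0.37 and 0.05 (-0.42 ± 0.10; adjusted p = 0.0176). The 2 tested sulphatases went the other way on the probe sets used, with neither called within a line. IDS gave 0.20 in Pfeiffer and -0.22 in OCI-Ly7 (0.42 ± 0.11; adjusted p = 0.0346), and SGSH 0.31 and -0.36 (0.67 ± 0.19; adjusted p = 0.0351). For this difference the second IDS probe set gave -0.21, not called, and its others past the filter gave 0.12 to 0.56. ATP6V1E1 changed by -0.50 in Pfeiffer and -0.16 in OCI-Ly7 (-0.34 ± 0.10; adjusted p = 0.0446), and LAMP1 differed by -0.40 (adjusted p = 0.0477). The calls of SGSH, IDS, ATP6V1E1 and LAMP1 were close to the threshold, and each was lost on leaving out 1 of several arrays.

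Other genes of the same pathways, 85 tested of 112 listed, were counted in the same way. In OCI-Ly7 2 rose and 2 fell (4.71%, against 2.68% of all tested genes), and in Pfeiffer 6 rose and 16 fell (25.9%, against 16.2%). In the control arrays 53 were higher in Pfeiffer and 21 lower (87.1%, against 79.6%), with a median of 0.52. The difference between the responses was called for 3 that were more positive in Pfeiffer and 15 more negative (21.2%, against 8.8%). The counts of single lists below are to be read against the same shares of all genes.

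The largest changes among them were in lysosomal membrane proteins, and 3 of these were called in the same direction in both lines. MFSD1, a lysosomal transporter of the major facilitator family, fell by 0.70 on the log2 scale in OCI-Ly7 (adjusted p = 0.000137) and by 1.34 in Pfeiffer (adjusted p = 2.41e-08). LAPTM4A, a small protein of late endosomes and lysosomes, fell by 0.55 (adjusted p = 0.000244) and 0.83 (adjusted p = 3.66e-07). LAPTM5, its relative in blood cells, rose by 0.91 in OCI-Ly7 (adjusted p = 4.1e-07) and by 0.30 in Pfeiffer (adjusted p = 0.00173). LAPTM4B fell in Pfeiffer (-0.34; adjusted p = 0.0063) and gave 0.11 in OCI-Ly7 (adjusted p = 0.552), and this difference was itself called (-0.45; adjusted p = 0.0158).

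Among other lysosomal enzymes, 1 rose in OCI-Ly7, and 1 rose and 4 fell in Pfeiffer, of 20 tested. RNASET2, the acid ribonuclease, rose by 0.52 in OCI-Ly7 (adjusted p = 0.0012) and changed by -0.69 in Pfeiffer (adjusted p = 1.35e-05). LGMN, the asparaginyl endopeptidase, changed by -0.82 in Pfeiffer (adjusted p = 0.000907) and CREG1, a secreted lysosomal glycoprotein, by -0.37 (adjusted p = 0.000268). The fucosidase FUCA1 rose by 0.47 there (adjusted p = 0.00162).

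Of 9 other V-ATPase subunits and assembly factors, ATP6V0A2, the a2 form of the V0 stator, rose in Pfeiffer (0.34; adjusted p = 0.0378) and DMXL1, which helps to reassemble the pump, fell (-0.45; adjusted p = 0.00317). Of 11 genes that deliver enzymes to the lysosome, GNPTAB, which makes the mannose 6-phosphate tag, rose in Pfeiffer (0.51; adjusted p = 0.000812) and the sorting adaptor GGA2 fell (-0.43; adjusted p = 0.000102). No gene of either list was called in OCI-Ly7.

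Of 10 genes of the TFEB family and of the Rag and Ragulator complexes, which tie it to nutrient sensing, none was called in OCI-Ly7 and 2 fell in Pfeiffer. RRAGD, a Rag GTPase, fell by 0.39 (adjusted p = 0.000723) and LAMTOR4 by 0.21 (adjusted p = 0.0385). RRAGD had been 2.10 higher in Pfeiffer controls than in OCI-Ly7 controls (adjusted p = 2.04e-13). Of 18 autophagy genes, none was called in OCI-Ly7, and in Pfeiffer ATG12 and ATG5, whose products are joined to each other, rose (0.31 and 0.24; adjusted p = 0.0042 and 0.0123) while 4 fell. UVRAG, a partner of the autophagy lipid kinase, fell by 0.52 (adjusted p = 0.000271) and ATG9A, the lipid scramblase of forming autophagosomes, by 0.71 (adjusted p = 0.00773).

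The 3 listed genes too dim to test were the iduronidase IDUA and the sulphatases ARSA and ARSB. Over the 12 arrays IDUA read 5.75 to 7.63, ARSA 5.56 to 7.61 and ARSB 5.94 to 7.59, all below the limit of 7.91. No test was made of them.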

How the data were processed

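The deposited table holds log2 signals for 54675 probe sets on 12 arrays. Per the submitters' processing notes the authors made these log2 values with MAS5 in affy; versions are not given in the sources used here. On the linear scale every array had a mean of 500 once 2% was trimmed from both ends, which shows scaling per array. There is no read depth for arrays, whose number sets the precision. Of the probe sets, 41091 carried 1 symbol in the platform annotation, 1801 several and 11721 none, and 62 were controls. The brightest 1-symbol probe set stood for each of 19775 genes. Signals became log2(signal + 16), and the upper 0.5 of genes by the higher line mean was tested (level 7.91, a signal of 223.9).

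The p-values come from limma (lmFit, eBayes with a trend) on all 12 arrays with 4 group means, with 8 residual and a median of 6.70 prior degrees of freedom, two-sided and adjusted over all genes. SE is limma's moderated standard error. Intervals are limma's at 95%, unadjusted. Other probe sets were fitted and adjusted among all probe sets past the same limit. The fits were tested on simulated data. The alternatives tried were pseudocounts of 1 and 64, quantile normalization, other filters and choices of probe set, limma without a trend, with array weights, a replicate block or per line, and each array left out. Full values are given for up to 10 called genes per contrast with the lowest p, changes for the others, and up to 4 genes per other list and line. The members, lists and rules were chosen with earlier results of these data known. Software was Python 3.11.15 with pandas 2.3.3 and matplotlib 3.10.9, and R 4.3.3 with limma 3.58.1 and data.table (1.17.8).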

Additional observations from a re-analysis of the deposited data

Results flagged for a closer look

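For 11 lysosomal genes the change after BCL6 siRNA differed between the lines when limma tested that difference (Pfeiffer minus OCI-Ly7, on the log2 scale). It was positive for LAMP2 on the probe set used (1.45), ATP6V1C1 (0.74), SGSH (0.67) and IDS (0.42). It was negative for NAGLU (-0.83), GRN (-0.53), GM2A (-0.50), LIPA (-0.45), TPP1 (-0.42), LAMP1 (-0.40) and ATP6V1E1 (-0.34). Of these, ATP6V1C1, NAGLU and GRN kept the call in every alternative that tested them, which were 23, 20 and 22 in turn. Groups of 3 arrays were too small for a search for single arrays far from the others.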

How the results depend on the processing

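A call for a lysosomal gene is counted here as held if every alternative that tested the gene kept it. Held calls were 1 of 3 in OCI-Ly7 (ATP6V1A) and 7 of 12 in Pfeiffer. They were also 3 of 11 differences between the responses and 29 of 38 baseline differences. Some genes, NAGLU among them, dropped out of alternatives that changed the filter or the choice of probe set, and were not tested there. Leaving out 1 array at a time gave 0 to 2 higher and 1 to 2 lower calls in OCI-Ly7. It gave 4 to 7 and 6 to 7 in Pfeiffer, 2 to 4 and 4 to 7 for the difference, and 32 to 33 and 4 to 5 at baseline.

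In OCI-Ly7 the number of genes called higher, 1 as reported, was 2 with quantile normalization, the stricter filter on dim genes or array weights. It was 0 without a filter, with the mean of all probe sets, without probe sets marked _x_at or _s_at (which may bind related transcripts), without a trend or with the replicate block. The number called lower, 2 as reported, was 1 without a filter, with the mean of all probe sets and without a trend. With the mean of all probe sets 3 genes were called higher and 4 lower in Pfeiffer, and 1 and 1 for the difference, where all tested genes also gave fewer calls (10.4% in Pfeiffer). Dropping the _x_at and _s_at probe sets left 34 lysosomal genes tested. Of these, 5 were called higher and 4 lower in Pfeiffer, against 13.2% of all tested genes. For the difference 3 were called higher and 2 lower, against 6.69%. At baseline 21 were called higher and 5 lower, a share close to the 76.1% of all tested genes. Without a filter 2 were called higher for the difference. One of the other BCL6 probe sets gave -0.17 in OCI-Ly7, not called (adjusted p = 0.429).

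At baseline the mean of all probe sets turned LAMP2 to 0.10, CTSC to -0.10 and TFE3 to -0.069, none called. Without the _x_at and _s_at probe sets ASAH1 turned to -0.58 at baseline and IDS to -0.21 for the difference. The pseudocounts of 1 and 64, the filter on the mean over all arrays and the fit per line moved none of these counts by over 1.5 times.

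Replicate numbers did not pair the arrays: deviations of arrays with the same number correlated at -0.08 to 0.083, and 1 of 6 arrays matched its own number best. With the replicate block 0 and 2 genes were called higher and lower in OCI-Ly7, 5 and 6 in Pfeiffer, 3 and 5 for the difference and 33 and 5 at baseline. Quantile normalization moved the median of all genes by less than 0.1 in every contrast.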
